A study of Mus musculus with 12 samples.

Results

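The 43 genes described here encode proteins that find, resect, join or copy across broken DNA ends, and they were taken from the table by symbol, from a list of double-strand break repair genes. All 43 were among the 25162 genes of the deposited table, Mre11 under its older symbol Mre11a. Among them, 42 reached a mean of 1 FPKM (fragments per kilobase of transcript, scaled to sequencing depth) over the table's columns and were set against all 10110 genes that passed the same minimum, themselves included. The remaining gene, Polq, encodes the polymerase of an alternative joining route. It was listed at 0.691, 1.18 and 1.16 FPKM in KO oocytes at NGO, GO and FGO, against 0.486, 1.17 and 0.755 FPKM in WT oocytes.

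Mouse oocytes were collected at 3 stages of growth, which the labels name NGO, GO and FGO, and which are read here as non-growing, growing and fully grown. At each stage the KO group carried an oocyte deletion of Rnaseh1 (headed oo-/- in the table), and the WT group carried the floxed allele, headed Rnaseh1 fl/fl in the table. RNase H1 removes the RNA strand of RNA:DNA hybrids, and the series title ties its loss to genome silencing in oogenesis. Per the labels there were 12 samples, with 2 for each genotype and stage, and each pooled 10 oocytes with 100 pg of spike-in RNA. The sources used here do not give the Cre line, the strain or the age of the mice. The table has 1 column per genotype and stage, which may be a mean, a pool or a single sample. There is therefore no replicate check of any difference below, and no test, SD or p-value is given. The number of oocytes per pool was set, but for any other cell type in a pool fewer cells and less RNA per cell cannot be told apart.

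A double-strand break is repaired mainly in 1 of 2 ways. In end joining, the Ku proteins bind the ends and DNA ligase IV seals them with little or no new sequence. In homologous recombination, the ends are cut back to single strands, coated by replication protein A, and copied from an intact DNA molecule. Oocytes make and repair many programmed breaks before birth, during meiotic recombination, and then rest for weeks to months in dictyate arrest, with homologous chromosomes held together. In that arrest the oocyte can repair damage by either route, and repair capacity is known to matter for the lifespan of the oocyte pool.

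Differences are given as KO minus WT on the log2(FPKM + 1) scale, which understates the change of low genes. A gene was called higher or lower at a difference of at least 1, which is termed 2-fold below. The plain KO to WT ratio of a low gene can pass 2 at a smaller difference. Each difference is given first as deposited, with the authors' spike-in adjustment. A rescaled difference follows, for which each column was divided by the median, over genes, of its ratio to the genes' geometric means, which sets the typical gene to about the same level in all columns. The median difference of all compared genes came to -0.11, -0.09 and 0.72 as deposited at NGO, GO and FGO, and 0.01, -0.03 and 0.02 after rescaling. At FGO, then, the median gene was listed clearly higher in KO than in WT, and the repair genes are read against that shift. Rnaseh1 itself was listed at 0.931, 3.10 and 8.02 FPKM in KO oocytes, against 8.61, 27.8 and 29.1 FPKM in WT oocytes. As deposited, KO oocytes thus held 10.8%, 11.2% and 27.6% of the WT level. The share at FGO is on the scale where the median gene was 0.72 higher in KO. A share after rescaling is not given here, so how Rnaseh1 changed relative to other genes is not read from it. Of 15 oocyte markers, all were at 1 FPKM or more in every column, except Sohlh1, which was listed at 0 in WT FGO. The summed level of 20 granulosa cell markers was 7.82, 20.1 and 91.7 FPKM in KO, against 5.26, 26.8 and 47.3 FPKM in WT. Of these 20, 2, 4 and 10 reached 1 FPKM in KO and 1, 5 and 6 in WT. At FGO, Esr2 had 37.3 FPKM in KO and 21.3 FPKM in WT, Cyp19a1 10.4 FPKM in KO and 6.16 FPKM in WT, Inha 9.32 FPKM in KO and 1.17 FPKM in WT, and Gja1 6.96 FPKM in KO and 0.965 FPKM in WT. Amh, in contrast, stayed at or below 0.457 FPKM in KO and 0.117 FPKM in WT at all stages, and Foxl2 was listed at 0 in KO and 0.0130 FPKM in WT at FGO. Hmgn5 (9.38 FPKM in KO and 9.85 FPKM in WT), Inhba and Inhbb were also lower in KO at FGO. Summed at FGO, immune markers had 72.6 FPKM in KO and 48.4 FPKM in WT, mostly C1qb. Endothelial and blood markers had 17.5 and 9.84 FPKM, and theca and stroma markers 3.91 and 5.57 FPKM. All these marker levels are as deposited. The part of these markers in the results was not tested.

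The repair genes together held 428, 1311 and 2557 FPKM in KO at NGO, GO and FGO, against 472, 1334 and 1478 FPKM in WT. Their share of all listed FPKM was 0.324%, 0.369% and 0.350% in KO, against 0.301%, 0.347% and 0.321% in WT. The KO to WT ratio of their sums was 0.907, 0.983 and 1.73 at the 3 stages, beside 0.842, 0.925 and 1.58 for all genes. Rnf8 was the highest of the genes in every column and Polq the lowest. Without Rnf8 the ratios were 0.926, 0.966 and 1.61. The median repair gene stood at 4.50, 13.6 and 21.9 FPKM in KO, against 4.74, 12.4 and 12.6 FPKM in WT, while the median compared gene stood at 3.35, 8.99 and 16.6 FPKM in KO and 3.70, 9.47 and 9.48 FPKM in WT. At least 1 FPKM was reached by 39, 43 and 43 of the 43 in KO and by 40, 43 and 42 in WT. The oocytes thus held RNA of almost the whole repair set at every stage and in both genotypes.

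**Figure D1:**
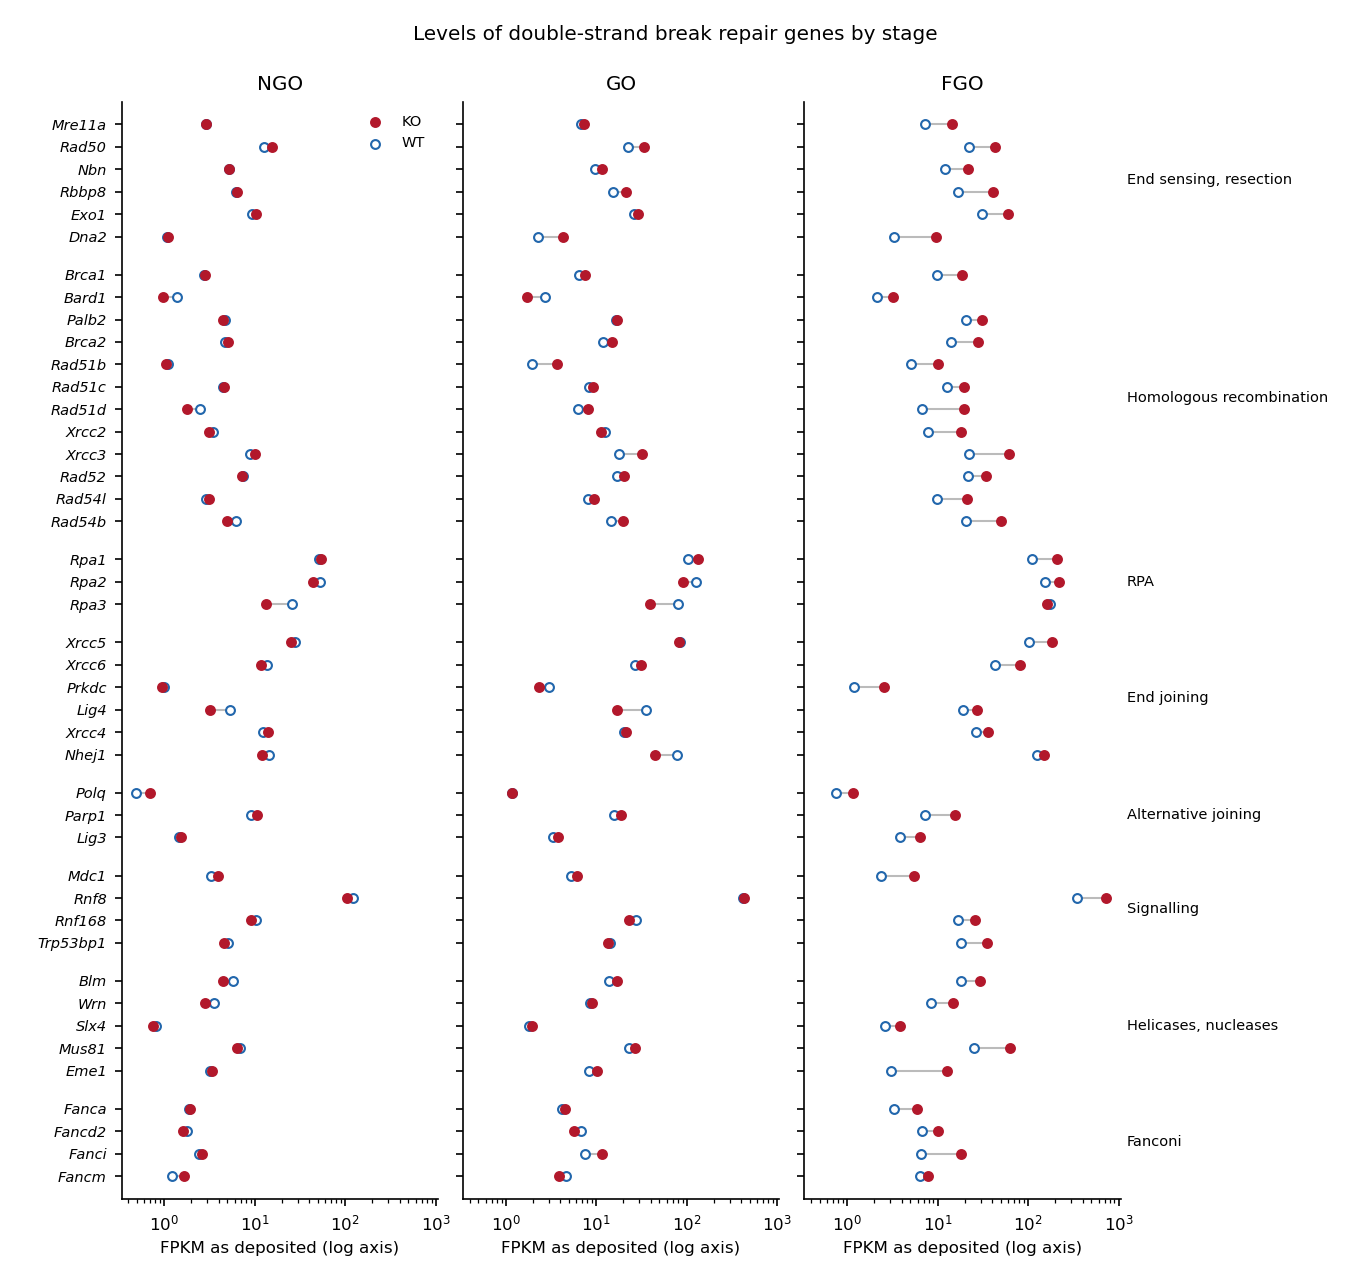
Levels of the 43 repair genes in each column, as FPKM on a log scale, with 1 panel per stage and 1 line per gene, KO as filled and WT as open circles, grouped by role. Genes differ far more from each other than between genotypes, and the highest in every panel is Rnf8, at 728 FPKM in KO and 346 FPKM in WT at FGO.

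At NGO none of the 42 compared repair genes differed 2-fold between KO and WT, on either scale, in a comparison where 0.356% of all genes did as deposited and 0.485% after rescaling. Their median difference was -0.03 as deposited and 0.11 after rescaling, and 29 of the 42 lay above the median gene. At GO, 0 repair genes were called higher, against 0.95% of all genes, and 1 was called lower, against 2.03% of all genes. That gene was Lig4. After rescaling, 0 differed 2-fold in either direction, against 2.32% of all genes. The median at GO was 0.13 as deposited and 0.20 after rescaling, with 32 of 42 above the median gene. With 1 call among 42 genes the count at both stages is near the background. Averaged over the stages, the repair genes had a median difference of 0.30 as deposited and 0.12 after rescaling, beside 0.17 and 0.00 for all genes.

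At FGO, 11 of the 42, or 26.2%, were called higher in KO, which is close to the 25.8% of all genes called higher there. None was called lower, against 0.158% of all genes. After rescaling none of the 42 reached a difference of 1 in either direction, against 2.62% of all genes. Eme1 was nearest, at 0.97, a value that understates its plain ratio because 1 is added to FPKM. The 11 were Rbbp8 and Dna2 of end resection, Rad51d, Xrcc2, Xrcc3, Rad54l and Rad54b of recombination, Rnf8 of damage signalling, the nuclease pair Mus81 and Eme1, and Fanci of crosslink repair. The median of the 42 at FGO was 0.85 as deposited and 0.13 after rescaling, beside 0.72 and 0.02 for all genes, and 27 of the 42 lay above the median gene. At FGO the middle of the repair genes after rescaling ran from -0.14 to 0.28 between its quartiles, against -0.25 to 0.30 for all genes. The repair genes were thus spread around the typical gene at FGO by no more than genes at large.

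**Figure D2:**
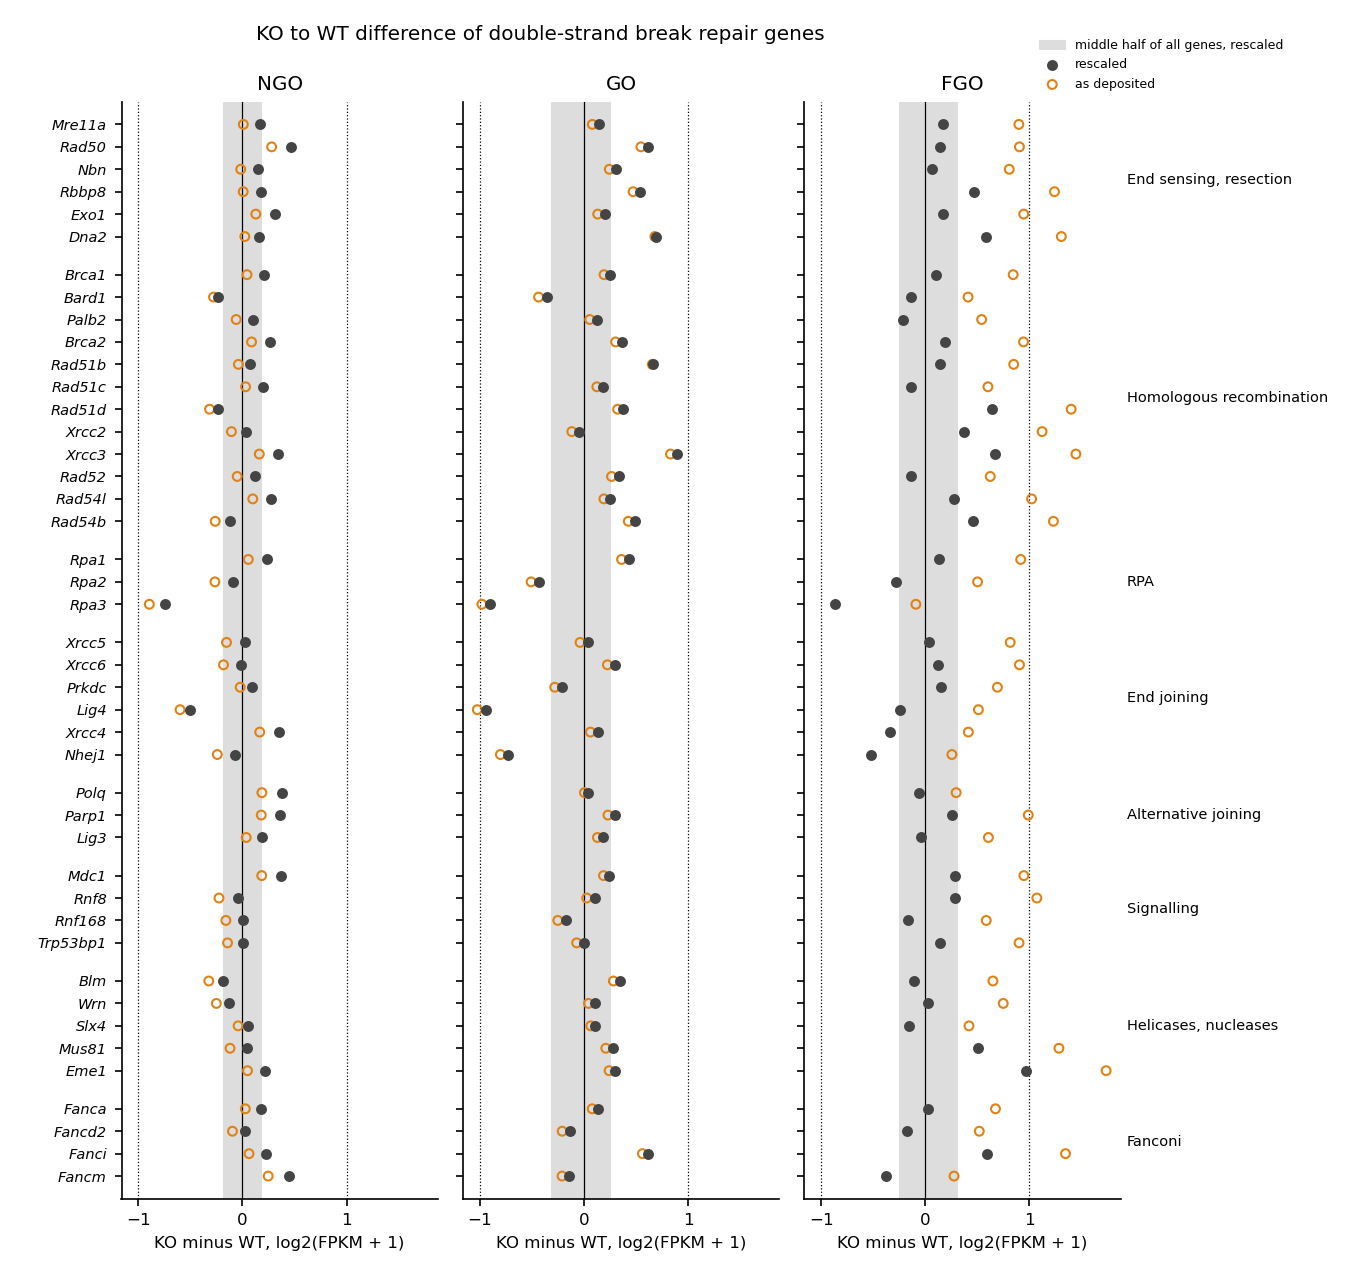
KO minus WT differences of the 42 compared repair genes at NGO, GO and FGO on the log2(FPKM + 1) scale, and of Polq, grouped by role, with filled points after rescaling and open points as deposited. The grey band is the interquartile range of all 10110 compared genes after rescaling and the dotted lines mark a difference of 1 in either direction. No filled point lies past a dotted line, the highest being Eme1 at FGO with 0.97 and the lowest Lig4 at GO with -0.94.

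End sensing and resection starts repair by recombination. MRE11, RAD50 and NBN form the complex that binds a broken end first, the product of Rbbp8 (CtIP) starts the cut, and EXO1 and DNA2 extend it. All 6 genes of this group lay above the median gene at each of the 3 stages after rescaling, with group medians of 0.17 at NGO, 0.42 at GO and 0.17 at FGO. Beside these, 29, 32 and 27 of all 42 lay above it. Rad50 was listed at 15.4, 33.5 and 42.7 FPKM in KO at NGO, GO and FGO, against 12.5, 22.6 and 22.4 FPKM in WT, so each KO value was above the WT value of its stage. The difference was 0.28, 0.55 and 0.90 as deposited and 0.47, 0.62 and 0.14 after rescaling, which placed Rad50 first of the 42 at NGO. Dna2, which encodes a helicase with nuclease activity, had 1.11, 4.26 and 9.54 FPKM in KO, against 1.08, 2.28 and 3.26 FPKM in WT. At NGO the genotypes were nearly alike for Dna2, while at FGO KO held 2.93 times the WT level, with a difference of 1.31 as deposited and 0.58 after rescaling. Rbbp8 had 6.29, 21.6 and 40.8 FPKM in KO, against 6.25, 15.3 and 16.7 FPKM in WT. Its difference at FGO was 1.24 as deposited and 0.47 after rescaling. The other 3, Mre11a, Nbn and Exo1, differed by 0.81 to 0.95 at FGO as deposited, and by 0.06 to 0.31 over the stages after rescaling.

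Recombination mediators act on resected DNA and help it find a match. BRCA1 with BARD1, PALB2 and BRCA2 prepare the resected end for the search, RAD51B, RAD51C, RAD51D, XRCC2 and XRCC3 work together in complexes that support it, RAD52 anneals single strands, and Rad54l and Rad54b encode motor proteins that act after them. Of these 12 genes, 9, 10 and 8 lay above the median gene at NGO, GO and FGO after rescaling, with medians of 0.11, 0.29 and 0.17. At FGO 5 of the 12 were called higher as deposited, where 25.8% of all genes were, and 0 after rescaling. Xrcc3 stood out among them, with 10.0 FPKM in KO NGO, 32.3 in KO GO and 62.0 in KO FGO, against 8.87, 17.7 and 22.1 FPKM in WT. KO exceeded WT at each stage, 1.13 times at NGO, 1.82 times at GO and 2.80 times at FGO. After rescaling, the Xrcc3 difference of 0.90 at GO was reached or passed by 1.88% of compared genes, and that of 0.67 at FGO by 6.52%. The gene lies on chromosome 12, at 111803192 to 111813893 on GRCm38.p6. Its promoter is shown because Xrcc3 had the highest difference of the repair genes at GO. With 0.1 in place of 1 added to FPKM, Dna2 had the highest there, at 0.87 as deposited. The stretch below is the RefSeq window before the start, chr12:111813894-111814129 on the minus strand of GRCm38.p6, 5′ to 3′, with each CCAAT box (or its complement ATTGG) in capitals.
Xrcc3: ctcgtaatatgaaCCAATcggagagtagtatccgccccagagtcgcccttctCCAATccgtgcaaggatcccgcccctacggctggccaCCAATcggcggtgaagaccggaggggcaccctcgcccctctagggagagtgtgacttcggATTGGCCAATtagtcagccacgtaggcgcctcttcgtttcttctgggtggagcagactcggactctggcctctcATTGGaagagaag
It holds 6 such matches, and a pair of them touch end to end as ATTGGCCAAT. The CCAAT word, the binding sequence of NF-Y, was found on either strand in 17 of the 37 promoter windows of repair genes, or 45.9%, and in 36.7% of 10402 windows of compared genes.

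The other genes of these complexes (Rad51b, Rad51c, Rad51d and Xrcc2) did not move as a block. Rad51d had 1.79, 8.21 and 19.4 FPKM in KO, against 2.47, 6.36 and 6.73 FPKM in WT. KO was thus below WT at NGO, at 0.723 times its level, and above it at GO and FGO, at 1.29 and 2.88 times. The Rad51d difference was -0.32, 0.32 and 1.40 as deposited and -0.23, 0.38 and 0.64 after rescaling. Rad51b had 1.04, 3.68 and 10.0 FPKM in KO, against 1.10, 1.97 and 5.11 FPKM in WT. Its KO value was the higher at GO and FGO, and its rescaled difference was 0.67 at GO and 0.14 at FGO. Xrcc2 had 3.15, 11.4 and 18.1 FPKM in KO, against 3.46, 12.4 and 7.80 FPKM in WT. As deposited Xrcc2 was lower at FGO than at GO in WT and higher in KO, while after rescaling it was lower in both, with steps of -0.19 in KO and -0.61 in WT. Its KO to WT difference at FGO was 1.12 as deposited and 0.37 after rescaling. Rad51c, whose product is shared between the complexes, stayed near the typical gene, with rescaled differences of 0.20, 0.19 and -0.14.

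Among the BRCA proteins, Bard1, the partner through which BRCA1 works as a ubiquitin ligase, lay below the typical gene where most of the group lay above it after rescaling. It had 0.970, 1.74 and 3.20 FPKM in KO, against 1.39, 2.70 and 2.16 FPKM in WT. After rescaling its difference was -0.24, -0.35 and -0.13, below the typical gene at each stage, whereas Brca1 stood at 0.21, 0.25 and 0.10. Brca2, whose product acts at resected ends, stood at 0.26, 0.37 and 0.19, and Palb2, which links BRCA1 to BRCA2, at 0.10, 0.13 and -0.21. Rad54b had 4.97, 19.9 and 49.96 FPKM in KO, against 6.16, 14.6 and 20.7 FPKM in WT. Its difference was -0.26, 0.43 and 1.23 as deposited and -0.12, 0.49 and 0.46 after rescaling. Of the exon bases of Rad54b, 35.8% are shared on the same strand with Fsbp, which was listed at no more than 2.01 FPKM, so the split of reads between them is uncertain. Rad54l had 3.15, 9.51 and 21.2 FPKM in KO, against 2.88, 8.20 and 9.95 FPKM in WT, a difference of 1.021 at FGO as deposited and 0.27 after rescaling. It shares 15.4% of its exon bases with Lrrc41 on the other strand, which was listed at up to 34.7 FPKM. Rad52 had rescaled differences of 0.12, 0.33 and -0.13.

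Replication protein A is a complex of 3 subunits that coats single-stranded DNA, and its genes were split. Rpa1, the large DNA-binding subunit, had 53.6, 134 and 207 FPKM in KO, against 51.5, 104 and 109 FPKM in WT, so KO was the higher at each stage. Rpa2, which is phosphorylated on damage, had 44.1, 90.03 and 219 FPKM in KO, against 53.2, 128 and 155 FPKM in WT. Rpa3, the smallest subunit, had 13.5, 39.7 and 162 FPKM in KO, against 25.9, 79.3 and 173 FPKM in WT, and its KO value was the lower at all 3 stages. No other compared repair gene had that order as deposited, while after rescaling Bard1, Rpa2, Lig4 and Nhej1 had it too. KO held 0.520, 0.501 and 0.939 times the WT level of Rpa3. The rescaled difference was 0.24, 0.44 and 0.13 for Rpa1, -0.09, -0.43 and -0.28 for Rpa2, and -0.74, -0.90 and -0.87 for Rpa3. As low a rescaled difference as that of Rpa3 was found in 1.13%, 2.08% and 1.70% of compared genes at NGO, GO and FGO. Rpa3 and Rpa2 have short transcripts, of 682 and 1813 nt, against 5077 nt for Rpa1, and the median of the shortest genes was lower in KO after rescaling. When compared genes were put in 10 equal classes by transcript length, the class of the shortest ran over 174 to 1321 nt, and there the median rescaled difference was -0.21, -0.35 and -0.29. Against the median of its own length class, Rpa3 was still the lower in KO, by -0.54, -0.55 and -0.59, and Rpa2 by -0.02, -0.36 and -0.26.

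The Rpa3 gene lies on chromosome 6, at 8255936 to 8259141 on GRCm38.p6. Its promoter is shown because Rpa3 was the lowest of the repair genes at NGO and FGO. The RefSeq window is chr6:8259174-8259391 on the minus strand, 5′ to 3′, with CCAAT matches in capitals.
Rpa3: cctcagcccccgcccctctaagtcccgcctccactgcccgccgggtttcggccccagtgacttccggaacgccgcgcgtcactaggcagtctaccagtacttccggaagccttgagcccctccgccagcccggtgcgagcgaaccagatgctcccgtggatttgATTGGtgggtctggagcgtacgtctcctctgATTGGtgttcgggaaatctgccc
It holds 2 matches, both in the ATTGG orientation, and 64.7% of its bases are G or C. The CCAAT word thus stands in the windows of both Xrcc3, highest of the repair genes at GO, and Rpa3, lowest at NGO and FGO.

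Classical end joining depends on the Ku proteins of Xrcc5 and Xrcc6, the kinase of Prkdc, and the ligase complex of Lig4, Xrcc4 and Nhej1 (XLF). After rescaling, 3 of the 6 genes lay above the median gene at each stage, with medians of 0.00, -0.09 and -0.10. Lig4, the ligase that seals the ends, had 3.17, 17.2 and 27.5 FPKM in KO, against 5.31, 35.9 and 19.0 FPKM in WT. KO was lower at NGO and GO, at 0.596 and 0.477 times WT, and higher at FGO, at 1.45 times. The Lig4 difference was -0.60, -1.02 and 0.51 as deposited and -0.51, -0.94 and -0.24 after rescaling, so the sign at FGO turned with the scaling. At GO, 1.71% of compared genes had as low a rescaled difference, the lowest of the repair genes. Nhej1, which holds the ligase complex at the ends, had 12.1, 44.4 and 151 FPKM in KO, against 14.5, 78.2 and 126 FPKM in WT. Its rescaled difference was -0.08, -0.72 and -0.53. Its transcript has 1053 nt, and against genes of its own length class the difference was 0.13, -0.38 and -0.24, so the sign at NGO turned. Xrcc4, the partner of ligase IV, had 14.1, 21.4 and 35.8 FPKM in KO, against 12.4, 20.4 and 26.6 FPKM in WT, and did not share the low GO value of Lig4 and Nhej1. Its rescaled difference was 0.35, 0.13 and -0.34. Xrcc5 and Xrcc6 lay within -0.01 and 0.30 of the typical gene, and Prkdc, with 0.956, 2.31 and 2.55 FPKM in KO against 0.986, 3.02 and 1.20 FPKM in WT, between -0.21 and 0.15.

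Lig4 lies on chromosome 8, at 9970020 to 9977680 on GRCm38.p6. Its promoter is shown because Lig4 was the only repair gene called at GO. RefSeq gives 2 starts for it, and the window of the most upstream is chr8:9977687-9977930 on the minus strand, 5′ to 3′, with the capitals marking the binding word of NRF1 (GCGC, AT and GCGC joined).
Lig4: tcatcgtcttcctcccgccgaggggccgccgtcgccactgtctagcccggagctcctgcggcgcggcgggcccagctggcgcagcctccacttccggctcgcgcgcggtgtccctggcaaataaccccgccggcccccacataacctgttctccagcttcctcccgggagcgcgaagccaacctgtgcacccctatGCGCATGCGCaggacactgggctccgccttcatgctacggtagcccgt
The window is 69.7% G or C and holds 27 CpG. The same word was found in 2 of the 37 repair gene windows, or 5.41%, those of Lig4 and Dna2, and in 1.79% of the windows of compared genes. These 2 genes differed in direction at GO, where Dna2 had a difference of 0.68 and Lig4 of -1.02 as deposited.

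**Figure D3:**
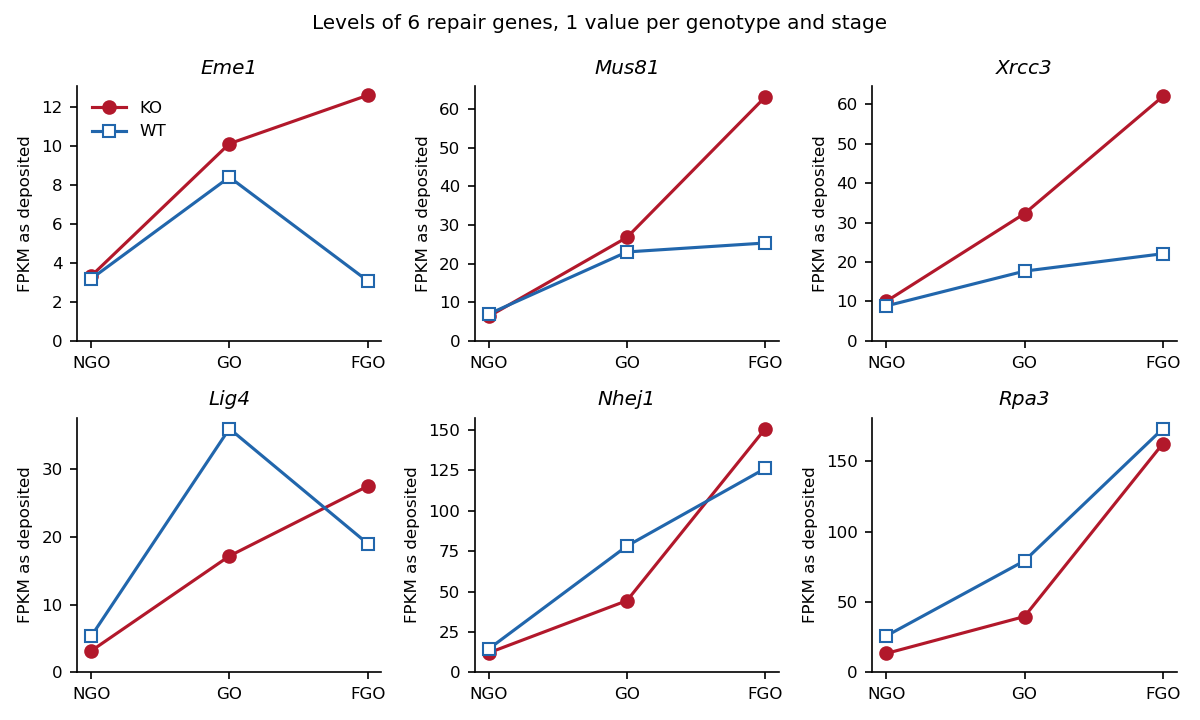
Levels of 6 repair genes (FPKM as deposited, each gene on its own linear axis from 0) at NGO, GO and FGO, with KO and WT each as a line through 1 value per stage. Lig4 and Nhej1 lie lower in KO at GO, Rpa3 lies lower in KO at each stage, and the lines of Eme1 part at FGO, where KO held 12.6 FPKM and WT 3.09 FPKM.

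Alternative end joining, which uses short matching stretches, is represented by Parp1, Lig3 and Polq. Parp1, whose product binds breaks and adds ADP-ribose chains, had 10.5, 18.7 and 15.6 FPKM in KO, against 9.13, 15.8 and 7.35 FPKM in WT. It was lower at FGO than at GO in both genotypes. Its difference was 0.18, 0.23 and 0.99 as deposited, and 0.36, 0.30 and 0.25 after rescaling. At FGO as deposited Parp1 was just under the line for a call, although KO held 2.12 times the WT level. Lig3, a ligase of this route and of mitochondrial DNA, had 1.53, 3.77 and 6.32 FPKM in KO, against 1.47, 3.36 and 3.81 FPKM in WT, and rescaled differences of 0.18, 0.18 and -0.04. It shares 25.1% of its exon bases with Rffl on the other strand, which was listed at up to 33.9 FPKM.

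Damage signalling marks the chromatin around a break. MDC1 binds the phosphorylated histone, RNF8 and RNF168 add ubiquitin, and 53BP1, the product of Trp53bp1, binds the result and limits resection. Rnf8 was by far the most abundant repair RNA, with 103, 428 and 728 FPKM in KO, against 121, 420.2 and 346 FPKM in WT. KO was the lower at NGO, near WT at GO, and 2.10 times WT at FGO, with a difference of 1.07 as deposited and 0.28 after rescaling. Rnf168, the ligase that acts after RNF8, had only 9.06, 23.0 and 26.0 FPKM in KO, against 10.2, 27.6 and 17.0 FPKM in WT. Mdc1 had 3.91, 6.17 and 5.53 FPKM in KO, against 3.32, 5.29 and 2.39 FPKM in WT, and its rescaled difference was 0.37, 0.24 and 0.29. Trp53bp1 had 4.54, 13.6 and 35.0 FPKM in KO, against 5.12, 14.3 and 18.3 FPKM in WT. After rescaling it stood at 0.01, 0.00 and 0.14, and Rnf168 at 0.01, -0.18 and -0.16.

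The last step of recombination separates joined DNA molecules. BLM and WRN are helicases, MUS81 with EME1 is a nuclease that cuts branched DNA, and SLX4 is the scaffold on which such nucleases gather. Eme1 showed the largest difference of the repair genes at FGO. It had 3.33, 10.1 and 12.6 FPKM in KO, against 3.19, 8.42 and 3.09 FPKM in WT, so that KO and WT were close at NGO and GO, and at FGO WT was back near its NGO value. KO held 4.09 times the WT level at FGO, a difference of 1.74 as deposited and 0.97 after rescaling, which 1.91% of compared genes reached or passed. Against genes of its own length the difference was 0.83. Eme1 lies on chromosome 11, at 94644972 to 94653836 on GRCm38.p6. Mus81, its partner, had 6.32, 26.8 and 63.1 FPKM in KO, against 6.96, 23.0 and 25.3 FPKM in WT. At FGO KO held 2.49 times the WT level of Mus81, with a difference of 1.28 as deposited and 0.51 after rescaling. Unlike Eme1, Mus81 was not lower at FGO than at GO in WT, so the partners differed in their WT courses and shared the direction of the KO difference. Blm had 4.41, 17.0 and 29.2 FPKM in KO, against 5.77, 13.8 and 18.3 FPKM in WT, with rescaled differences of -0.19, 0.35 and -0.10. Wrn and Slx4 had rescaled differences between -0.15 and 0.11 at all stages.

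Mus81 lies on chromosome 19, at 5482561 to 5488389 on GRCm38.p6. Its promoter window is shown as 1 of those with none of the 4 kinds of word searched. It is chr19:5488403-5488629 on the minus strand, 5′ to 3′.
Mus81: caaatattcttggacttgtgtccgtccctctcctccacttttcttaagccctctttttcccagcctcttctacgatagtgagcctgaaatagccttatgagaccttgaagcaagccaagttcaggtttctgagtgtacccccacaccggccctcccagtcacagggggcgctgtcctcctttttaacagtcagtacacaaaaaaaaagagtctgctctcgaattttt
It is poor in CpG, with 5 in 227 bases, against a median of 17 per 250 bases in the repair gene windows and 16 in those of compared genes. Windows were matched for 33 of the 43 genes and hold a median of 58.8% G or C, against 59.6% in the windows of compared genes. Words that E2F proteins bind (TTT, then 2 bases that are each C or G, then CGC, on either strand) were found in 4 windows, or 10.8%, against 3.38% of the windows of compared genes. These were the windows of Bard1, Brca2, Mdc1 and Xrcc6, whose rescaled differences at FGO ran from -0.13 to 0.29. The word TATAAA was found in 1 window, that of Brca2, or 2.70%, against 6.61%. A match is only a run of letters, and no binding was measured.

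Crosslink repair by the Fanconi anaemia proteins uses FANCM to sense a blocked fork, a core complex with FANCA, and the paired proteins FANCD2 and FANCI that receive ubiquitin. Of these 4 genes, 4, 2 and 2 lay above the median gene at NGO, GO and FGO after rescaling. Fanci had 2.60, 11.5 and 18.03 FPKM in KO, against 2.45, 7.48 and 6.48 FPKM in WT. KO held 1.06, 1.54 and 2.78 times the WT level of Fanci, with a difference of 1.35 as deposited and 0.59 after rescaling at FGO. Its partner Fancd2 did not follow it, with 1.62, 5.76 and 10.1 FPKM in KO against 1.80, 6.81 and 6.77 FPKM in WT, and rescaled differences of 0.02, -0.14 and -0.17. Fanci shares 15.95% of its exon bases with Polg on the other strand, which was listed at no more than 2.40 FPKM. Fancm had 1.64, 3.92 and 7.86 FPKM in KO, against 1.22, 4.69 and 6.32 FPKM in WT, and rescaled differences of 0.45, -0.14 and -0.38. Fanca stood at 0.18, 0.13 and 0.03.

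The genes were also followed along oocyte growth within each genotype. Between NGO and GO, 32 of the 42 repair genes, or 76.2%, were called higher in KO, against 57.6% of all genes. In WT 28 of the 42, or 66.7%, were, against 54.8% of all genes. The median step of the repair genes was 1.35 in KO and 1.10 in WT as deposited, against 1.10 in KO and 1.06 in WT for all genes. After rescaling it was 0.11 in KO and -0.05 in WT, so most of the step was the rise in listed FPKM that genes at large shared. The 3 largest WT steps were those of Lig4 (2.12 in KO and 2.55 in WT), Nhej1 (1.79 in KO and 2.35 in WT) and Rnf8 (2.04 in KO and 1.79 in WT). The 3 smallest were those of Rad51b (1.20 in KO and 0.50 in WT), Mdc1 (0.54 in both) and Bard1 (0.47 in KO and 0.63 in WT). As deposited no compared repair gene was lower at GO than at NGO in either genotype, and after rescaling 18 of the 42 were in KO and 24 in WT.

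Between GO and FGO the genotypes took different courses in the table as a whole, and the repair genes moved with it. In KO, 15 of the 42, or 35.7%, were called higher at FGO, against 39% of all genes, and none was called lower, against 0.514%. In WT, 2 were called higher, Rpa3 with a step of 1.12 and Rad51b with 1.04, against 6.5% of all genes. Another 2 were called lower in WT, Eme1 with a step of -1.20 and Parp1 with -1.01, against 9.22% of all genes. In KO the steps of these genes were 2.01 for Rpa3, 1.23 for Rad51b, 0.29 for Eme1 and -0.25 for Parp1. The median step was 0.83 in KO and 0.22 in WT, against 0.84 in KO and 0.08 in WT for all genes. After rescaling it was 0.02 in KO and 0.20 in WT.

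Read by direction alone and as deposited, 2 of the 42 repair genes were lower at FGO than at GO in KO, or 4.76%, against 10.4% of all genes. In WT 14 were, or 33.3%, against 45.0% of all genes. After rescaling the counts were 20 in KO and 14 in WT, so the order of the genotypes turned with the scaling. The KO pair as deposited was Parp1 and Mdc1, both also lower in WT. Among the 14 in WT, the lowest WT steps after those of Eme1 and Parp1 were those of Lig4 (0.65 in KO and -0.89 in WT), Mdc1 (-0.13 in KO and -0.89 in WT), Prkdc (0.10 in KO and -0.87 in WT), Rnf168 (0.17 in KO and -0.67 in WT) and Xrcc2 (0.63 in KO and -0.61 in WT). These genes come from end joining, signalling and recombination alike. The difference between genotypes shifted up by at least 1 from GO to FGO in 8 of the 42, against 29% of all genes, with medians of 0.76 for the repair genes and 0.80 for all genes. Lig4 and Eme1 shifted most, by 1.53 and 1.495. After rescaling, 0 of the 42 shifted up by at least 1, and their median shift was -0.04. As deposited, Nhej1 had the third highest WT step, at 1.74 in KO and 0.68 in WT.

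**Figure D4:**
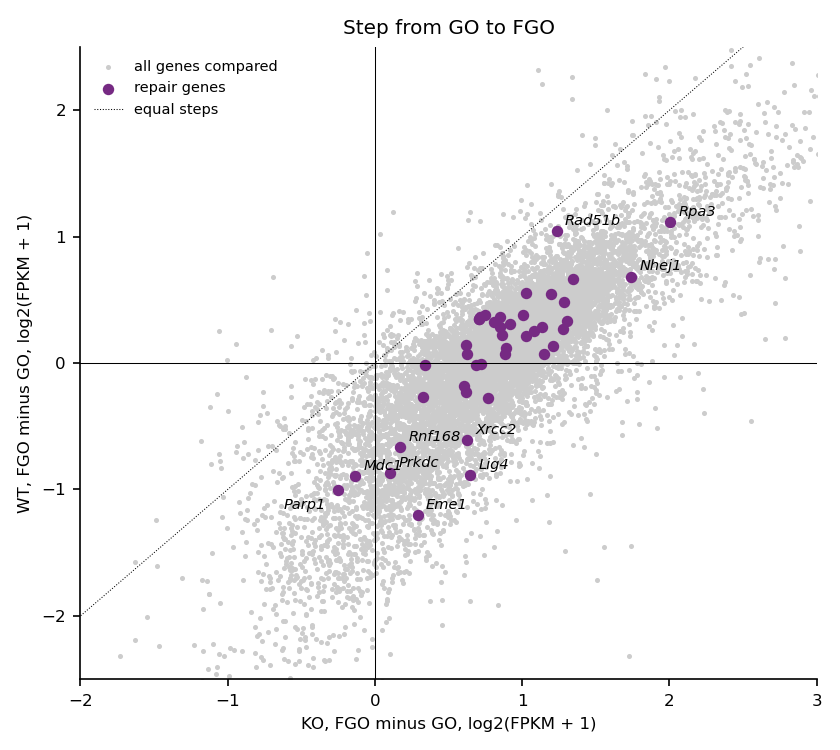
Step from GO to FGO (FGO minus GO, log2(FPKM + 1) as deposited) in KO on the horizontal axis and in WT on the vertical axis, with the 42 compared repair genes in purple over all compared genes in grey. The dotted line marks equal steps, and genes past the axis limits are not drawn. Every repair gene lies below the line, Rad51b (1.23 in KO and 1.04 in WT) nearest to it and Lig4 (0.65 in KO and -0.89 in WT) and Eme1 (0.29 in KO and -1.20 in WT) farthest from it. As deposited the median shift of all compared genes had the same direction. After rescaling the median shift of the repair genes was -0.04, and that of Rad51b was -0.52.

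The differences of the repair genes were also set beside transcript length, whose part in them was not tested. Their median length was 4528 nt, against 3229 nt for compared genes, and 3 of them (Rpa3, Nhej1 and Rpa2) had under 2000 nt. These 3 had the lowest, the second lowest and the fifth lowest rescaled difference at FGO. Against the median of their own length class, the rescaled differences of the repair genes had medians of 0.10, 0.23 and 0.07 at NGO, GO and FGO. All 6 resection genes stayed above the median of their class at NGO and GO, and 5 of the 6 at FGO. Across the 42 genes, Spearman's rho between length and rescaled difference was 0.27, -0.11 and 0.0051 at the 3 stages. Without the 3 short ones it was 0.14, -0.38 and -0.23 over 39 genes. Genes are not independent replicates, and these values describe the list only. No repair gene had a near-identical copy in another gene, taken as 95% identity over at least 50% of its transcript, and 7 shared at least 10% of their exon bases with a neighbour. Besides Rad54b, Rad54l, Lig3 and Fanci these were Trp53bp1, Fanca and Rnf8.

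**Figure D5:**
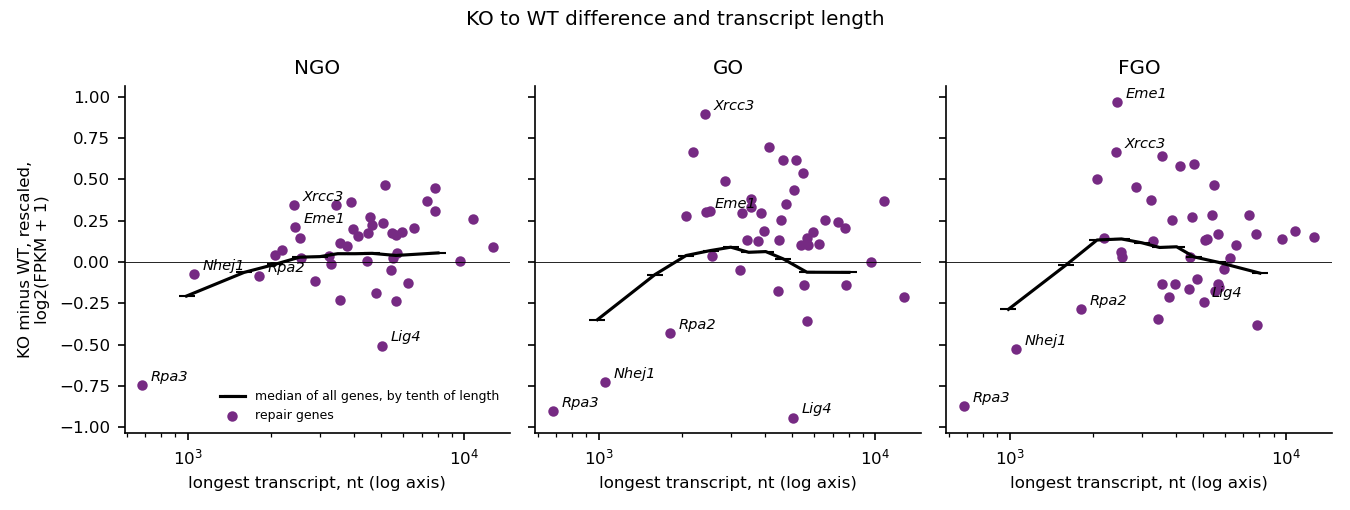
Rescaled KO minus WT difference against transcript length (nt, log scale) at NGO, GO and FGO, with 1 point per compared repair gene and a line for the median of all compared genes in each of 10 length classes. The line dips for the shortest transcripts, to -0.35 at GO. Rpa3 lies below its level at each stage, and Eme1 lies above it at FGO.

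Beyond the 43, the table held 106 other genes of the same routes, of which 93 were compared. None was called at NGO, 1 was called higher and 0 lower at GO, and 30 were called higher and 0 lower at FGO. Of all compared genes, 0.95% were called higher at GO and 25.8% at FGO. After rescaling only Tex15 at GO and Rad9a at FGO were past 2-fold. Their rescaled medians were 0.03, 0.13 and 0.06. Tex15, a meiotic recombination gene, had 4.90 FPKM in KO and 1.94 FPKM in WT at GO. Rad9a, a subunit of the checkpoint clamp, had 6.05 FPKM in KO and 0.919 FPKM in WT at FGO, a difference of 1.88 as deposited and 1.11 after rescaling. As deposited, with 25.8% of all genes called higher at FGO, 7 of 18 of the recombination genes were. Of the end joining and break end genes, 6 of 11 were called higher there, and after rescaling none of either group was. These included the polymerase gene Polm, with 8.86 FPKM in KO and 2.35 FPKM in WT, and the scaffold gene Xrcc1, with 104 FPKM in KO and 34.8 FPKM in WT. The counts as deposited were 5 of 23 for signalling, 3 of 11 for junction processing, 4 of 14 for Fanconi anaemia and 5 of 16 for meiotic recombination. Fance, of the Fanconi core complex, had 20.2 FPKM in KO and 5.75 FPKM in WT, and Top3a, which unlinks junctions with BLM, had 6.82 FPKM in KO and 2.07 FPKM in WT. The recombination gene Sfr1 was listed well above Rnf8, with 2246 FPKM in KO and 1762 FPKM in WT at FGO.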

How the data were processed

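Polyadenylated RNA of pooled oocytes was amplified by Smart-seq2 and read as 150 bp pairs, per the labels. The submitters' processing notes name HISAT2 2.2.1, Cufflinks 2.2.1 and Trim Galore 0.6.7, with the build mm10. The deposited unit is FPKM, corrected by the authors with the spike-in, by a formula not stated in these sources. Annotation and strand use are not given there, and read depth is unknown.

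The table's 25912 lines held 25164 symbols. Lines with error marks (2) were dropped, and 333 symbols with several lines were reduced to their highest line. Genes averaging 1 FPKM or more were compared as differences of log2(FPKM + 1). Median-ratio factors were 0.453, 1.22 and 2.26 for KO and 0.514, 1.29 and 1.31 for WT at NGO, GO and FGO. A linear model was planned for 2 columns per group, and with 1 column it could not be run. The genes, lists and rules were chosen with earlier results of these data known. Values of all columns are given for the 5 highest and 5 lowest rescaled differences at each stage, for every 2-fold gene, and for the 3 highest and lowest WT steps. Alternatives were other scalings, a pseudocount of 0.1, a minimum mean of 5 FPKM, no filter, symbols on 1 line only, and centring on the median of 10 classes of transcript length (GENCODE M21, 99.4% of genes compared). Promoter windows hold 250 bases before RefSeq starts on GRCm38.p6, and printed ones leave out bases that an annotated exon of the gene covers. Copies were searched with blastn 2.17.0. Scripts ran in Python 3.11.15. They recovered planted differences in simulated data, where the changes were larger than 2-fold, low genes were raised to 5 FPKM and the noise was set. Recovery of smaller changes or of lower genes was not tried.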

Additional observations from a re-analysis of the deposited data

Results flagged for a closer look

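The KO to WT difference of Rad51d, a recombination gene, had opposite signs at different stages on both scales. It was -0.32 at NGO and 0.32 at GO as deposited, 0.64 apart, and -0.23 and 0.38 after rescaling. Between NGO and FGO it was -0.32 and 1.40 as deposited, 1.72 apart, and -0.23 and 0.64 after rescaling. With 1 column per genotype and stage, neither difference between stages was tested. At NGO Rad51d was listed at only 1.79 FPKM in KO and 2.47 FPKM in WT.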

How the results depend on the processing

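With 1 column per genotype and stage, nothing here shows how far these values would vary between oocyte pools, and leaving out a sample could not be run. No paired analysis was possible because the columns carry no sample number. Counts are taken as moved past 1.5-fold and medians past 0.585 on the log2 scale. The choice of scale decided most counts of 2-fold repair genes, as it sets the level of the typical gene in each column. Values below are given for median-ratio scaling, equal column totals and centring on genes of like transcript length, in that order. Here the centring was done on differences as deposited, whereas the length-class values in the sections above used rescaled differences. The 1 gene called lower at GO became 0, 0 and 0. The 11 called higher at FGO became 0, 1 and 0, and the median of all 42, 0.85 as deposited, became 0.13, 0.24 and 0.10. Equal column totals kept Eme1, at 1.09. With a pseudocount of 0.1 on deposited values the 11 became 14, with Prkdc, Parp1 and Mdc1 added. That pseudocount also changed the highest repair gene as deposited, from Rad50 to Fancm at NGO and from Xrcc3 to Dna2 at GO. From NGO to GO, the 32 called higher in KO became 0, 0 and 0 and the median of 1.35 became 0.11, 0.12 and 0.22. In WT the 28 called higher became 2, 2 and 2, and the median of 1.10 became -0.05421, -0.02215 and 0.02398, so its sign turned under the first of these scalings and the next. From GO to FGO, the 15 called higher in KO became 1, 0 and 0, the median of 0.83 became 0.01715, -0.12 and 0.03049, and the first scalings each called 1 lower in place of 0. In WT the 2 called higher became 1, 0 and 0, and 1 with a minimum mean of 5 FPKM, while the 2 called lower became 1 by median-ratio scaling, 4 with equal totals and 4 with a pseudocount of 0.1. The KO to WT difference shifted up 2-fold from GO to FGO in 8 genes, which became 0, 0 and 0, and the median shift of 0.76 became -0.04113, 0.03679 and -0.0006156. Of 126 single-gene differences between KO and WT, 39, 35 and 34 moved past 0.585. With no filter, and with only symbols on 1 line, every count stayed within 1.5-fold and every median within 0.585.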
